A study of Mus musculus with 30 samples.

Results

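The genes described here make, clear and sense prostaglandins: Pla2g4a, Ptgs1, Ptgs2, Ptges, Ptges3, Ptgis, Hpgd and Ptger4. They are 8 of the 29861 genes listed for the series, found by matching Ensembl identifiers to symbols in GENCODE M21. The set was chosen by the level of Ptgs2, which was higher than in DMSO in 2 compounds, Cardamonin and AEG 3482, in which other genes driven by NF-kB were lower. The comparisons of those compounds with the solvent DMSO are therefore given as descriptions, without a test, and the other 6 compounds are tested.

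RNA was sequenced from CCG-HTA-1, a line of tail fibroblasts from UMHet3 mice, a genetically mixed stock, at passage 4. Cells received DMSO (6 libraries) or 1 of 8 compounds (3 libraries each, 30 libraries in all): Cardamonin, a plant chalcone; AEG 3482; Podofilox, which blocks tubulin polymerisation; Antimycin A and Dihydrorotenone, which block the mitochondrial respiratory chain; Diphenyleneiodonium Cl, which inhibits flavin enzymes; Clofilium tosylate, a potassium channel blocker; and a compound listed as BerberineA. Every group shared the same line, high-glucose medium with 10% serum, ambient oxygen and 10% CO2, with compound added 24 hours after plating and RNA taken 48 hours later. The doses are not given in the sources used here. The donor mice are listed as 5 to 8 weeks old, except for Dihydrorotenone replicate 1, listed as 8 to 11 weeks. Nothing in the labels says that replicates came from separate animals, so the p-values measure the spread between libraries of 1 line, which may be technical. Library numbers ran in order within each group, so a batch that followed that order and the treatment cannot be told apart.

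Prostaglandins are lipid signals made on demand. Phospholipase A2 frees arachidonic acid from membranes, a cyclooxygenase turns it into prostaglandin H2, and a terminal synthase makes the final product, such as prostaglandin E2 or prostacyclin. Ptgs2 is the cyclooxygenase that cells switch on in response to cytokines, growth factors and stress, whereas Ptgs1 is commonly described as constitutive. Hpgd oxidises prostaglandins and so inactivates them, and Ptger4 encodes EP4, a cell-surface receptor for prostaglandin E2. In fibroblasts of skin and connective tissue these genes are known for their part in inflammation and repair.

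Ptgs2 and Pla2g4a lie beside each other on chromosome 1 and are read in opposite directions, with 138740 bases between the gene starts in GRCm38. Ptgs2 (ENSMUSG00000032487) spans chr1:150100031-150108227 on the plus strand, and Pla2g4a (ENSMUSG00000056220) spans chr1:149829618-149961290 on the minus strand. Hpgd (ENSMUSG00000031613) spans chr8:56294585-56321043 on the plus strand. The promoters of these 3 genes are printed because the levels of these genes moved furthest among the 8 or, for Pla2g4a, because it adjoins Ptgs2. Each is the RefSeq window of 300 bases in GRCm38.p6, read 5′ to 3′ along the gene, with the annotated start at base 251. Capitals mark matches to any of the 8 motifs listed after them. The windows are chr1:150099781-150100080 for Ptgs2, chr1:149961241-149961540 for Pla2g4a (the first of 2 RefSeq starts) and chr8:56294302-56294601 for Hpgd.
Ptgs2: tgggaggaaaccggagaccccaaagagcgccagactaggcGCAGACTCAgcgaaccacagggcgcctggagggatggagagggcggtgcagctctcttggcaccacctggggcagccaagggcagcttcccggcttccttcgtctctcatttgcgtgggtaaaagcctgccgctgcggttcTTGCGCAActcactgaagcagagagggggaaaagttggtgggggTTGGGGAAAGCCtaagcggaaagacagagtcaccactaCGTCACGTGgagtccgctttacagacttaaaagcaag
Pla2g4a: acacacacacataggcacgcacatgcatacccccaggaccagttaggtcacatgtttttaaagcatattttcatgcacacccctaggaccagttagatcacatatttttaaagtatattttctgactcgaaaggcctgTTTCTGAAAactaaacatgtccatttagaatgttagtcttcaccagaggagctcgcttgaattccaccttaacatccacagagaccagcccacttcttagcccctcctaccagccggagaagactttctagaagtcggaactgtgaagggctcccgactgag
Hpgd: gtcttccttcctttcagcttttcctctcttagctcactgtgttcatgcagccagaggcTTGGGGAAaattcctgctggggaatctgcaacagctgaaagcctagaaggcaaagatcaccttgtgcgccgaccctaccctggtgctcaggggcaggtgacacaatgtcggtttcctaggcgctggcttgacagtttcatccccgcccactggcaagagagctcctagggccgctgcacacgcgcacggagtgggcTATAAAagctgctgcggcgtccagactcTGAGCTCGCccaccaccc

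The motifs were searched on both strands: TATAAA (the TATA box), CACGTG (the E-box), TGACG (the core of the cyclic AMP response element), TGANTCA (bound by AP-1), TTNNGNAA (a loose C/EBP site), a loose NF-kB site (GGG, any 5 bases, CC), TGANNNNGC (a loose antioxidant response element) and TGATGNAA (a loose C/EBP-ATF site). In the Ptgs2 window TTNNGNAA matched at bases 182 to 189 and 226 to 233, the latter overlapping a loose NF-kB site at 228 to 237. TGACG matched on the minus strand at 264 to 268 and overlapped CACGTG at 267 to 272, and TGANNNNGC matched at 41 to 49. Hpgd held TATAAA at bases 255 to 260, TTNNGNAA at 59 to 66 and TGANNNNGC at 283 to 291. Pla2g4a held TTNNGNAA on both strands, overlapping, over bases 139 to 147. Among all 32851 RefSeq windows of the same length, 7.15% held CACGTG, 13.6% TATAAA, 20.8% TGACG, 40.7% TTNNGNAA, 41.3% TGANNNNGC and 50.8% the loose NF-kB site. TGANTCA (7.81% of windows) and TGATGNAA (3.97%) matched in none of the 7 genes with a window, Ptgis having none in the table. A match describes the letters of the window only.

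Levels are in TPM, a share of all transcripts in the library that corrects for the length of each transcript, so levels of different genes can be compared. Differences are on the log2(TPM + 1) scale, which understates changes at low levels, and are given with the standard error (SE) of the model. A difference was called when its p-value, from limma across the 13644 genes that reached 1 TPM in at least 3 libraries and adjusted by Benjamini and Hochberg's method, was under 0.05. The deposited table gives no read counts, so the depth behind a value is unknown and precision rests on the spread between libraries. Of the 8 genes, 7 passed the filter on low values and Ptgis did not. All compounds were compared with the same 6 DMSO libraries, so the comparisons are not independent of one another. In bulk RNA, fewer cells of a type and less RNA per cell cannot be told apart.

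The libraries were of even content, with 12229 to 12700 genes at 1 TPM or more in each. All 10 fibroblast markers (Col1a1, Col1a2, Col3a1, Pdgfra, Pdgfrb, Thy1, Lum, Dcn, Fn1 and Vim) were found. Their summed level was 14050 to 16830 TPM in DMSO, 14690 to 16810 in AEG 3482, 6163 to 8029 in Cardamonin and 10680 to 14390 in the other compounds. Of 6 macrophage and leukocyte markers, 4 reached 1 TPM in some library, none was at 0 throughout, and their sum was 28.6 to 33.6 TPM in DMSO. That sum was 32.7 to 45.1 in Cardamonin, 26.0 to 33.7 in BerberineA, and 17.5 to 27.9 in the other 6 compounds. Adgre1, a macrophage surface receptor, averaged 10.4 TPM in DMSO and between 1.91 (Cardamonin) and 6.51 (BerberineA) in the compounds, and Cd68, a lysosomal marker, 13.1 in DMSO and 33.1 in Cardamonin. Ptprc, which marks all leukocytes, stayed under 1 TPM in every library. The 4 keratinocyte markers stayed under 1 TPM as well, with Krt5 at 0 throughout, and of 3 mast cell markers Cpa3 and Fcer1a were at 0 throughout. Of 4 endothelial markers 1, the receptor Tek, reached 1 TPM and none was at 0 throughout. Their sum was 5.42 to 8.71 TPM in DMSO, 1.09 to 1.18 in Cardamonin, 1.63 to 1.77 in AEG 3482 and 4.98 to 8.01 in the other 6 compounds. The sum of 3 cartilage markers, 2 of which reached 1 TPM, was 3.73 to 6.19 TPM in DMSO, 6.44 to 6.79 in Cardamonin, 7.15 to 7.86 in AEG 3482, 6.99 to 7.75 in Podofilox and 3.83 to 6.86 in the other 5 compounds. The part of these shifts in the results below was not tested.

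**Figure D1:**
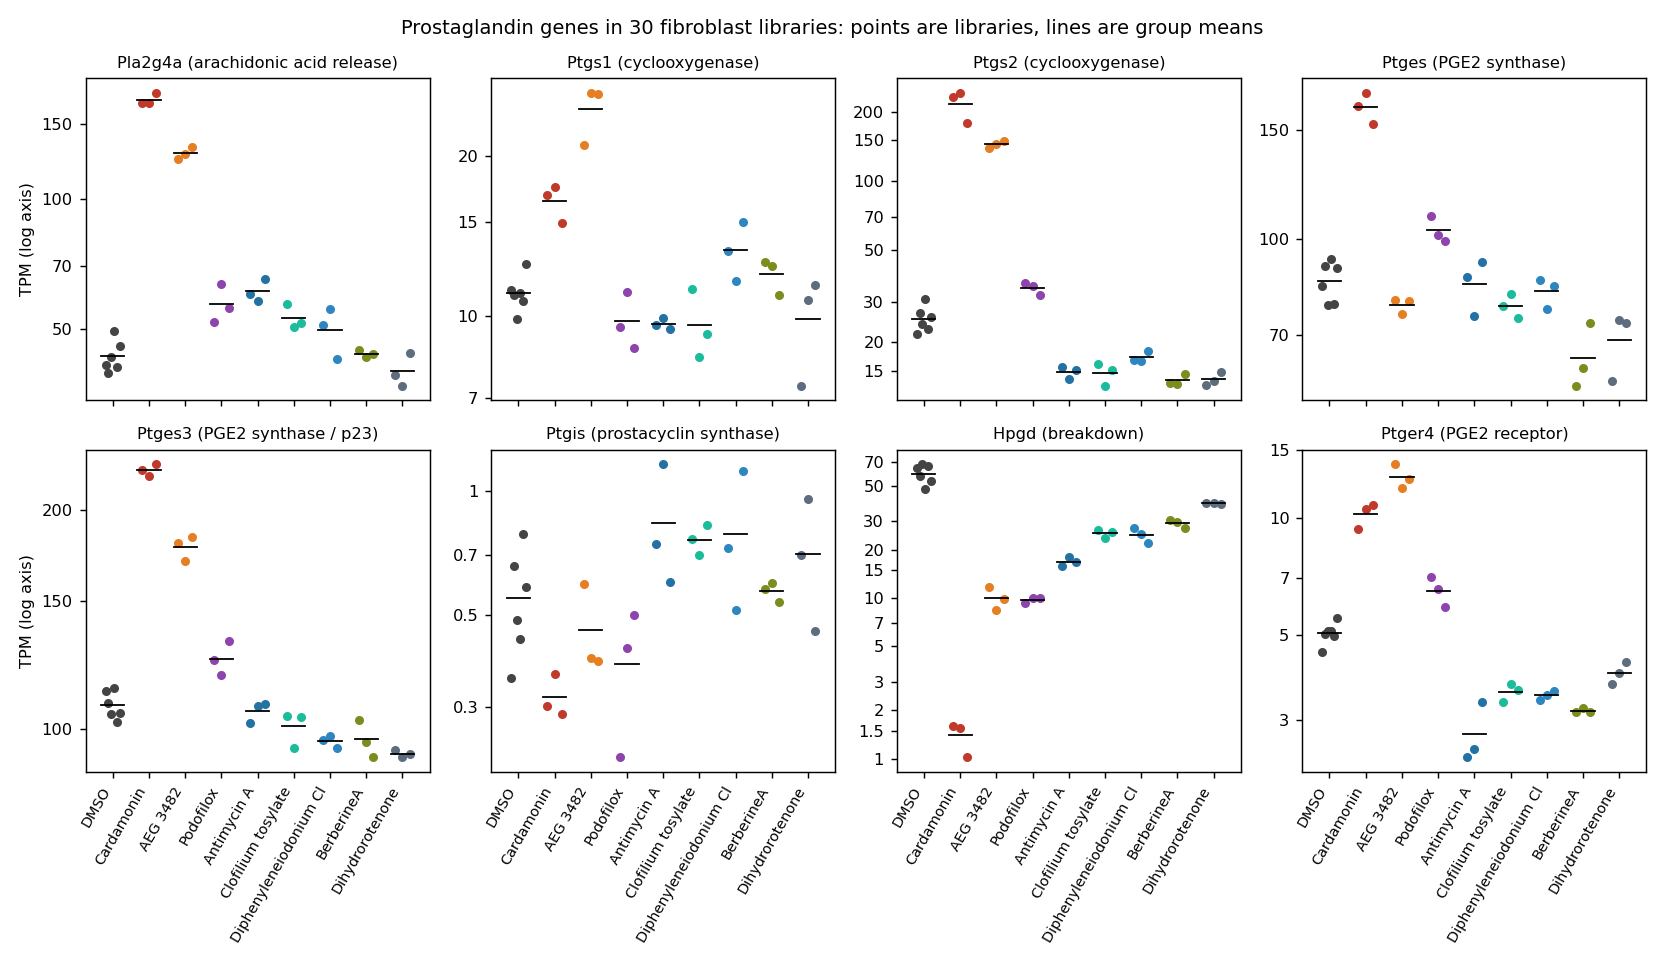
Level of each of the 8 genes in the 30 libraries, in TPM on a log axis, by treatment; each point is 1 library and each line is the mean of its group. Ptgs2 stands at 139 to 241 TPM in Cardamonin and AEG 3482 against 21.8 to 30.8 in DMSO, while Hpgd is under the lowest DMSO library in all 8 compounds.

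Pla2g4a encodes cytosolic phospholipase A2, the enzyme that releases arachidonic acid. Its level in DMSO was 39.6 TPM in the lowest library, 42.2 at the median and 49.4 in the highest. Cardamonin libraries held 168, 167 and 177 TPM, 3.94 times the DMSO mean, and AEG 3482 libraries 125, 128 and 132, 2.96 times. No library of either compound overlapped the DMSO range. Of all tested genes, 61.6% likewise did not overlap DMSO in Cardamonin and 58.9% in AEG 3482. In the other 6 compounds that share ran from 14.9% (Dihydrorotenone) to 38.5% (Podofilox). In Cardamonin and AEG 3482, lying outside the DMSO range thus says nothing particular of Pla2g4a or of the genes below. Among the 6 tested compounds Pla2g4a rose in 3 and fell in none. It stood at 60.2, 58.2 and 65.3 TPM with Antimycin A, a rise of 0.49 (SE 0.08, adjusted p = 1.011e-05). With Podofilox the libraries held 51.8, 63.7 and 55.9 TPM, a rise of 0.39 (adjusted p = 0.0001271). Both groups lay wholly above DMSO, and they overlapped each other. With Clofilium tosylate the rise was 0.29 (adjusted p = 0.005792), and without replicate 1 of that group it was 0.24 (adjusted p = 0.0542). Diphenyleneiodonium Cl missed the threshold at 0.19 (adjusted p = 0.066), and passed it without its replicate 3 at 0.30 (adjusted p = 0.00767) or without DMSO replicate 4 at 0.23 (adjusted p = 0.0225). BerberineA differed from DMSO by 0.02 (adjusted p = 0.88) and Dihydrorotenone by -0.11 (adjusted p = 0.375).

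Ptgs1 (ENSMUSG00000047250, chr2:36230426-36252272, plus strand) encodes cyclooxygenase 1. It averaged 11.0 ± 0.85 TPM in DMSO (SD, n = 6), with a range of 9.87 to 12.5. AEG 3482 libraries held 21.0, 26.3 and 26.1 TPM and Cardamonin libraries 16.9, 17.4 and 15.0, all above that range. For Ptgs1 the order was thus the reverse of that for Pla2g4a and Ptgs2, with AEG 3482 above Cardamonin. In the other 6 compounds the group means ran from 9.62 to 13.3 TPM and no change was called, with adjusted p-values from 0.102 to 0.53. The libraries of each of those 6 groups overlapped the DMSO range.

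Ptgs2 encodes cyclooxygenase 2. Its level in DMSO was 21.8 TPM in the lowest library, 24.8 at the median and 30.8 in the highest. Cardamonin libraries held 231, 241 and 178 TPM, and AEG 3482 libraries 139, 145 and 149. Every one of these 6 libraries was above the highest DMSO library, and the means were 8.57 and 5.71 times the DMSO mean. On the log2 scale the differences were 3.05 and 2.48, each with SE 0.09, and without Cardamonin replicate 3 the first was 3.18. These comparisons chose the gene and carry no test.

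In the tested compounds Ptgs2 rose in 1 and fell in 5. With Podofilox it stood at 36.0, 35.0 and 32.1 TPM, above every DMSO library, a rise of 0.43 (SE 0.09, adjusted p = 0.0002892). With BerberineA it stood at 13.3, 13.2 and 14.5 TPM, a difference of -0.83 (adjusted p = 2.439e-07). Dihydrorotenone libraries held 13.0, 13.6 and 14.8 TPM, a difference of -0.82 (adjusted p = 2.187e-06). All of these libraries lay below the lowest DMSO library. Clofilium tosylate libraries held 16.0, 13.0 and 15.2 TPM, a difference of -0.74 (adjusted p = 1.216e-06). Antimycin A libraries held 15.6, 13.9 and 15.1 TPM, a difference of -0.72 (adjusted p = 5.152e-07). Diphenyleneiodonium Cl libraries held 16.8, 16.5 and 18.4 TPM, a difference of -0.52 (adjusted p = 9.101e-05). The order of the groups ran Cardamonin, AEG 3482, Podofilox, DMSO, Diphenyleneiodonium Cl, Antimycin A, Clofilium tosylate, Dihydrorotenone and BerberineA. Neighbours in that order did not overlap down to Diphenyleneiodonium Cl and Antimycin A, and from Antimycin A onward each group overlapped the next.

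The ratio of the cyclooxygenases has Ptgs2 as its numerator, so in Cardamonin and AEG 3482 it restates the levels that chose the set. In DMSO the level of Ptgs2 was 2.30 ± 0.31 times that of Ptgs1 (SD, n = 6). The ratio was 13.2 ± 1.06 in Cardamonin, 5.96 ± 0.58 in AEG 3482 and 3.54 ± 0.33 in Podofilox (SD, n = 3 each). In the other 5 compounds the mean ratio lay between 1.15 and 1.54, and the highest single library there reached 1.76, below the lowest DMSO library at 1.95.

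Ptges (ENSMUSG00000050737, chr2:30889471-30929863, minus strand) encodes the inducible, membrane-bound prostaglandin E synthase. In DMSO it ranged from 78.4 to 92.9 TPM with a median of 86.9. Cardamonin libraries held 164, 172 and 153 TPM, all above that range, and AEG 3482 libraries 79.6, 75.8 and 79.5, which overlapped it. Here the 2 compounds that shared a high Ptgs2 parted, with log2 differences from DMSO of 0.92 and -0.13, the latter -0.28 under quantile normalization. Ptges rose with Podofilox, to 109, 102 and 99.4 TPM (0.27, adjusted p = 0.005726). It fell with BerberineA, to 58.0, 62.0 and 73.2 TPM (-0.41, adjusted p = 0.0002969). With Dihydrorotenone it stood at 59.0, 73.9 and 73.3 TPM (-0.32, adjusted p = 0.005958), and the call was lost without replicate 1, the library with the older donor age (-0.21, adjusted p = 0.1006), or with these groups fitted alone (adjusted p = 0.0524). The other 3 tested compounds differed from DMSO by -0.13 to -0.02 and were not called.

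Ptges3 (ENSMUSG00000071072, chr10:128058954-128077272, plus strand) encodes p23, a co-chaperone of HSP90 that also has prostaglandin E synthase activity. In DMSO it ranged from 102 to 114 TPM. Cardamonin libraries held 228, 223 and 232 TPM and AEG 3482 libraries 181, 170 and 184, all above DMSO. It rose with Podofilox by 0.21 (adjusted p = 0.0002718). It fell with Dihydrorotenone by 0.22 on the log2 scale (adjusted p = 0.001202) and with Diphenyleneiodonium Cl by 0.16 (adjusted p = 0.006582). With BerberineA the difference was -0.16 (adjusted p = 0.01079), but the libraries overlapped DMSO and the call was lost without replicate 3 (-0.12, adjusted p = 0.1123) or with these groups fitted alone (adjusted p = 0.0722). Of the 31-base words in its transcripts, 20.9% also occur in another gene, 20.3% in the pseudogene Ptges3-ps, so its level is uncertain.

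Ptgis (ENSMUSG00000017969, chr2:167191805-167240604, minus strand) encodes prostacyclin synthase. Its group means ran from 0.317 TPM in Cardamonin to 0.836 in Antimycin A, with 0.552 ± 0.16 in DMSO (SD, n = 6). Single libraries reached 1.16 TPM at most. Every group overlapped the next in the order of means, and the gene was not tested.

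Hpgd encodes 15-hydroxyprostaglandin dehydrogenase, which starts the breakdown of prostaglandins. In DMSO it stood at 47.6 TPM in the lowest library, 60.8 at the median and 67.8 in the highest. Cardamonin libraries held 1.61, 1.56 and 1.03 TPM, and AEG 3482 libraries 11.7, 8.46 and 9.89. The Cardamonin mean was 0.0236 times the DMSO mean, a log2 difference of -4.65, which became -5.32 with a pseudocount of 0.1. The difference for AEG 3482 was -2.46.

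Hpgd fell in all 6 tested compounds, and no library of any compound reached the lowest DMSO library. How many of all tested genes fell in all 6 is not given here, for Hpgd or for the genes below. Podofilox libraries held 9.34, 9.96 and 10.0 TPM, a difference of -2.48 (SE 0.10, adjusted p = 5.485e-16). Antimycin A libraries held 15.9, 18.0 and 16.7 TPM, a difference of -1.75 (adjusted p = 8.301e-13). Podofilox thus left Hpgd at a level that overlapped that of AEG 3482, although its Ptgs2 was far lower. Diphenyleneiodonium Cl libraries held 27.3, 24.9 and 21.9 TPM, a difference of -1.23 (adjusted p = 1.7e-09). Clofilium tosylate libraries held 26.5, 23.6 and 25.7 TPM, a difference of -1.19 (adjusted p = 3.996e-09). These groups overlapped each other. BerberineA libraries held 30.7, 29.5 and 27.2 TPM, a difference of -0.99 (adjusted p = 9.052e-08). Dihydrorotenone libraries held 39.1, 39.2 and 38.7 TPM, a difference of -0.58 (adjusted p = 0.0002868). Adgre1 was also lower than in DMSO in all 8 compounds, from 10.4 ± 1.05 TPM (SD, n = 6) to 6.51 or less. The summed macrophage and leukocyte markers were 32.7 to 45.1 TPM in Cardamonin, where Hpgd was lowest, against 28.6 to 33.6 in DMSO. That sum also overlapped DMSO in BerberineA and lay below it in every other compound. The part of these markers in the levels of Hpgd was not tested.

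**Figure D2:**
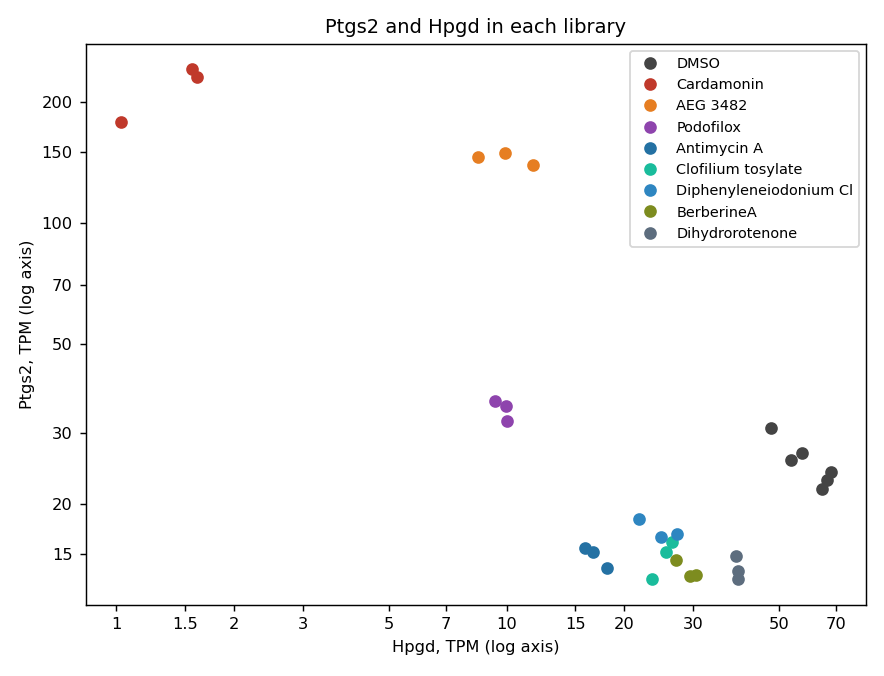
Ptgs2 against Hpgd in each library, both in TPM on log axes, coloured by treatment. Cardamonin sits at the upper left (Hpgd 1.03 to 1.61 TPM), AEG 3482 and Podofilox share Hpgd levels of 8.46 to 11.7 TPM at different Ptgs2, and the other 5 compounds lie below and to the left of DMSO.

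The ratio of Ptgs2 to Hpgd likewise restates those levels. The Ptgs2 level was 0.439 ± 0.12 times the Hpgd level in DMSO (SD, n = 6). The ratio was 157 ± 15.2 in Cardamonin, 14.7 ± 2.68 in AEG 3482 and 3.52 ± 0.33 in Podofilox (SD, n = 3 each). In the other 5 compounds the mean ratio ran from 0.355 in Dihydrorotenone to 0.886 in Antimycin A, with both genes lower than in DMSO. Among the DMSO libraries the one with the highest Ptgs2, at 30.8 TPM, had the lowest Hpgd, at 47.6.

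Ptger4 (ENSMUSG00000039942, chr15:5206661-5244187, minus strand) encodes the EP4 receptor. In DMSO it stood at 4.50 TPM in the lowest library, 5.07 at the median and 5.51 in the highest. AEG 3482 libraries held 13.8, 12.0 and 12.7 TPM and Cardamonin libraries 9.39, 10.6 and 10.8, with no overlap with DMSO or with each other. Across the 8 compounds Ptger4 lay on the same side of DMSO as Ptgs2. The share of all genes with that pattern is not given here, and the comparisons of Cardamonin and AEG 3482 chose Ptgs2. It rose with Podofilox, to 7.06, 6.57 and 5.90 TPM (0.31, adjusted p = 0.0008554). It fell with Antimycin A, to 2.41, 2.54 and 3.35 TPM (-0.69, adjusted p = 3.131e-08). BerberineA gave -0.53 (adjusted p = 5.912e-06), Diphenyleneiodonium Cl -0.43 (adjusted p = 6.97e-05) and Clofilium tosylate -0.41 (adjusted p = 0.000156). All of these groups lay wholly below DMSO. With Dihydrorotenone the difference was -0.28 (adjusted p = 0.01046), lost without its replicate 1 (-0.24, adjusted p = 0.0765) or with these groups fitted alone (adjusted p = 0.0519). Of the 31-base words of Ptger4, 14.4% also occur in Gm15937, which limits how surely its reads can be assigned.

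**Figure D3:**
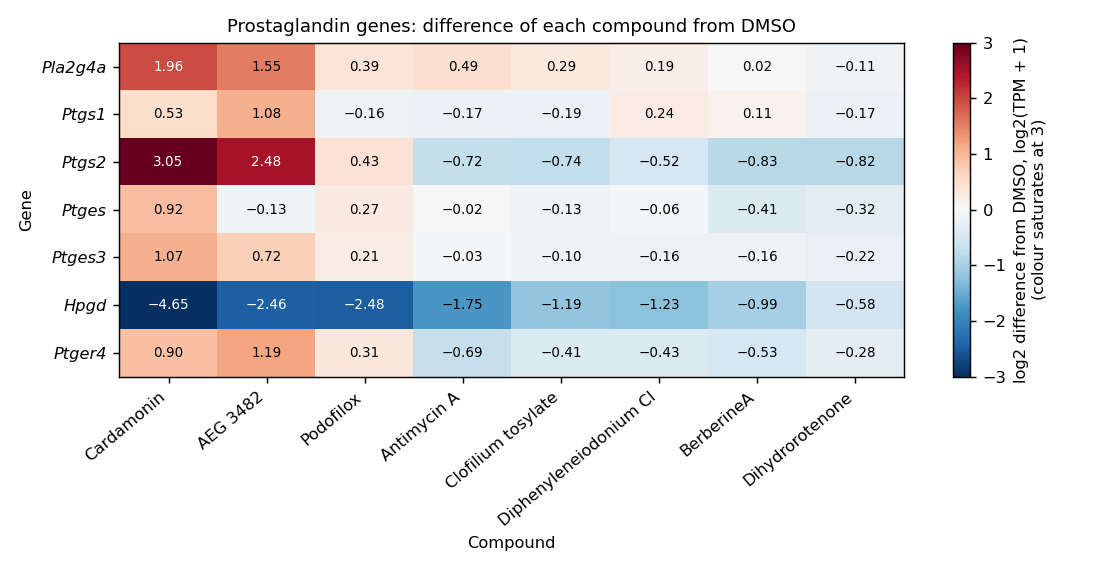
Log2 difference from DMSO on the log2(TPM + 1) scale for the 7 tested genes (rows) in each compound (columns), with colour saturating at 3. Hpgd is negative in all 8 compounds, from -4.65 to -0.58, and Ptgs2 and Ptger4 are positive in Cardamonin, AEG 3482 and Podofilox and negative in the other 5.

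Counted over the 7 tested genes, Podofilox raised 5 and lowered 1, where 26.2% of all tested genes were called higher and 20% lower. Antimycin A raised 1 and lowered 3 (21.8% of all genes higher, 15.5% lower), and Clofilium tosylate likewise raised 1 and lowered 3 (10.9% and 12.5%). Diphenyleneiodonium Cl lowered 4 and raised none (14.0% higher, 11.7% lower). BerberineA lowered 5 and raised none (12.6% higher, 9.16% lower). Dihydrorotenone also lowered 5 and raised none (4.95% higher, 9.43% lower), and without its replicate 1 it lowered 3. Of all genes called in Dihydrorotenone 34.4% were higher, and with median-ratio scaling 53.8% were. Cardamonin had 6 higher and 1 lower (37.3% of all genes higher, 33.0% lower) and AEG 3482 5 higher and 1 lower (41.3% and 26.8%), in the comparisons that chose Ptgs2. With so many genes called in those compounds, the count says nothing particular of prostaglandin genes. The median difference of the 7 genes was 0.92 in Cardamonin and 1.08 in AEG 3482, beside 0.03 and 0.10 over all tested genes. Those medians include Ptgs2, the gene that was chosen, and without it they were 0.91 and 0.90. The other members were also chosen with earlier results of these data known. The medians in Cardamonin and AEG 3482 are therefore descriptions, with or without Ptgs2. In Podofilox the median of the 7 genes was 0.27 beside 0.04. In the other 5 compounds it ran from -0.41 in BerberineA, beside 0.02, to -0.16 in Diphenyleneiodonium Cl, also beside 0.02.

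Cardamonin and AEG 3482 were also compared directly, where 22.6% of all tested genes were called higher with Cardamonin and 32.7% lower. All 7 genes differed between them, 4 higher and 3 lower with Cardamonin. The choice of Ptgs2 rested on each compound against DMSO and not on this difference, but it used these same libraries. The other members were chosen with earlier results of these data known. The p-values of this comparison are therefore not independent of the choice of genes. Ptges differed by 1.05 (SE 0.09, adjusted p = 2.999e-10) and Ptgs2 by 0.57 (SE 0.10, adjusted p = 4.825e-05). Pla2g4a (0.41, adjusted p = 0.0002797) and Ptges3 (0.35, adjusted p = 1.743e-06) were higher with Cardamonin as well. The differences of Cardamonin from AEG 3482 were negative for Hpgd (-2.20, SE 0.12, adjusted p = 4.615e-14) and Ptgs1 (-0.54, adjusted p = 0.0006274). For Ptger4 the difference was -0.30 (adjusted p = 0.003789), a call lost under quantile normalization (-0.19, adjusted p = 0.0597). Pla2g4a, Ptgs2, Ptges and Ptges3 were thus the higher in Cardamonin, and Ptgs1, Hpgd and Ptger4 the higher in AEG 3482.

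Antimycin A and Dihydrorotenone, both inhibitors of the respiratory chain, were compared after their values against DMSO had been seen, and 11.6% of all tested genes were called higher with Antimycin A and 3.91% lower. The difference of Antimycin A from Dihydrorotenone was -1.17 for Hpgd (SE 0.12, adjusted p = 1.011e-07) and 0.60 for Pla2g4a (SE 0.09, adjusted p = 2.345e-05). For Ptger4 it was -0.41 (adjusted p = 0.001095, and 0.0748 when these groups alone were fitted). Ptgs2 differed by 0.10, with a 95% interval of -0.12 to 0.31 (adjusted p = 0.60). Ptges (0.30, adjusted p = 0.022) and Ptges3 (0.19, adjusted p = 0.009188) passed the threshold, but both calls were lost under quantile normalization (adjusted p = 0.0545 and 0.0897). The Ptges call was also lost with these groups fitted alone (adjusted p = 0.1392). Leaving out Antimycin A replicate 1 or 3, or Dihydrorotenone replicate 1, lost it too (adjusted p = 0.0846, 0.1281 and 0.1803). The Ptges3 call was also lost with median-ratio scaling (adjusted p = 0.1869). Matched doses cannot be assumed for this pair or for any other, since none is given.

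Of 47 other genes of the eicosanoid pathway, 32 passed the filter. The 15 that did not included the prostaglandin D synthases Ptgds and Hpgds, the receptors Ptger2, Ptger3, Ptgdr and Ptgdr2, and the lipoxygenases Alox5 and Alox15. Antimycin A raised 10 and lowered 8 of the 32, where 21.8% of all tested genes were higher and 15.5% lower. Diphenyleneiodonium Cl raised 8 and lowered 9 (14.0% and 11.7% of all genes), and BerberineA 7 and 9 (12.6% and 9.16%). Podofilox raised 8, close to the 26.2% of all genes, and lowered 10 (20% of all genes). Clofilium tosylate raised 6 and lowered 8 (10.9% and 12.5%), and Dihydrorotenone 4 and 7 (4.95% and 9.43%). In Cardamonin 13 were higher and 11 lower, near the 37.3% and 33.0% of all genes. In AEG 3482 14 were higher and 12 lower (41.3% and 26.8%). The median difference of the 32 lay between -0.10 (Podofilox) and 0.24 (AEG 3482).

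On the release side, S100a10, a partner of annexin A2 that binds cytosolic phospholipase A2, fell in all 6 tested compounds. Its DMSO mean was 185.5 ± 14.4 TPM (SD, n = 6). In Cardamonin and AEG 3482 it was higher, at 241.9 and 451.1 TPM (0.38 and 1.28). It stood at 99.6 ± 6.51 with Diphenyleneiodonium Cl (-0.89, adjusted p = 9.408e-10), 104.9 ± 12.9 with Antimycin A (-0.82, adjusted p = 1.063e-09) and 132.8 ± 10.5 with Dihydrorotenone (-0.48, adjusted p = 5.852e-05). Clofilium tosylate (-0.81, adjusted p = 7.173e-09), BerberineA (-0.70, adjusted p = 7.958e-08) and Podofilox (-0.62, adjusted p = 6.284e-08) lay between these. Pla2g2e, a secreted phospholipase A2, rose from 6.57 ± 0.95 TPM in DMSO to 14.0 ± 1.96 with Antimycin A (0.99, adjusted p = 5.058e-07). It also rose with Clofilium tosylate (0.70), BerberineA (0.62) and Diphenyleneiodonium Cl (0.58), with adjusted p-values of 0.0001391, 0.0005242 and 0.0008904. Mgll, a lipase that frees arachidonic acid from an endocannabinoid, rose from 7.90 ± 1.04 to 14.9 ± 1.25 TPM with Antimycin A (0.84, adjusted p = 6.665e-07). It rose with Clofilium tosylate as well (0.42, adjusted p = 0.005226), and averaged 7.13 TPM in Cardamonin and 4.67 in AEG 3482. Mgll averaged 12.0 TPM in Diphenyleneiodonium Cl and 10.3 in BerberineA, with every library above the DMSO range. In Dihydrorotenone it averaged 9.5 TPM, and in Podofilox 5.6, with every Podofilox library below the DMSO range. Acsl4, which ties up arachidonic acid as its CoA ester, rose with Podofilox from 24.6 ± 1.49 to 47.3 ± 1.90 TPM (0.92, adjusted p = 9.513e-12). It averaged 44.3 TPM in Cardamonin and 28.05 in AEG 3482. Acsl4 was lower in Dihydrorotenone, Diphenyleneiodonium Cl and BerberineA, whose highest libraries held 21.29, 22.76 and 21.78 TPM. All libraries of these compounds lay below the lowest DMSO library, at 22.99 TPM. Those of Antimycin A and Clofilium tosylate overlapped the DMSO range. Pla2g12a, another secreted phospholipase, rose with Podofilox too (0.65, adjusted p = 3.996e-05), and with Diphenyleneiodonium Cl (0.57, adjusted p = 0.0005102). Its mean was 11.7 TPM in DMSO, 16.6 in Antimycin A, 15.9 in Cardamonin and 14.2 in AEG 3482. Every library of those 3 compounds lay above the DMSO range, and the remaining compounds overlapped it. Pla2g16, a phospholipase of adipose tissue, averaged 39.2 TPM in DMSO, 12.6 in Cardamonin and 20.5 in AEG 3482, and fell to 26.1 with Podofilox (-0.57, adjusted p = 8.266e-08). It rose to 54.9 with Antimycin A (0.48, adjusted p = 1.915e-06), 54.5 with Diphenyleneiodonium Cl (0.47, adjusted p = 5.371e-06), 50.5 with BerberineA (0.36, adjusted p = 0.0002159) and 49.8 with Dihydrorotenone (0.33, adjusted p = 0.001024).

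Among the reductases, Akr1c18, a hydroxysteroid dehydrogenase that can also act on prostaglandins, averaged 2.97 ± 0.49 TPM in DMSO, 67.0 ± 3.48 in Cardamonin and 18.5 ± 1.04 in AEG 3482. Its log2 differences were 4.11 and 2.31, larger in Cardamonin than the difference of Ptgs2 itself. Akr1b8, an aldo-keto reductase, fell with Dihydrorotenone from 31.5 to 24.0 TPM (-0.37, adjusted p = 0.001258), where DMSO replicate 6 stood apart at 37.5. Akr1b8 averaged 25.2 TPM in Antimycin A and 23.5 in BerberineA, but 77.5 in Cardamonin, 61.3 in AEG 3482 and 36.4 in Podofilox. Cbr1, a carbonyl reductase that converts prostaglandin E2, rose with Dihydrorotenone from 81.4 to 99.8 TPM (0.29, adjusted p = 7.081e-05). It averaged more in Antimycin A (111.7), BerberineA (103.1), Diphenyleneiodonium Cl (101.6), Cardamonin (131.1) and AEG 3482 (118.9). In Clofilium tosylate it averaged 94.5 TPM, and in Podofilox 74.0, below the DMSO mean. Prxl2b, a prostamide and prostaglandin F synthase, fell with Podofilox from 34.8 to 19.7 TPM (-0.78, adjusted p = 8.53e-10). It averaged 20.7 in Cardamonin and 21.2 in AEG 3482.

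Later steps of breakdown are carried by Ptgr1 and Zadh2, reductases that act on the 15-keto products of Hpgd. They stood at 155.3 and 98.5 TPM in Cardamonin and 132.3 and 120.8 in AEG 3482, against 46.1 and 41.6 in DMSO, whereas Hpgd was lower in both. Ptgr2, the remaining breakdown gene of the list, was lower as well, at 34.4 TPM in Cardamonin and 32.9 in AEG 3482. Its DMSO mean was 38.6 TPM, and the libraries of both compounds overlapped the DMSO range. Zadh2 fell with Dihydrorotenone (-0.25, adjusted p = 0.0001924), BerberineA (-0.21), Clofilium tosylate (-0.16) and Antimycin A (-0.15), and Ptgr1 with Dihydrorotenone (-0.17, adjusted p = 0.0112). With Podofilox neither was called (Ptgr1 -0.10, adjusted p = 0.071; Zadh2 0.10, adjusted p = 0.051). Ptgr1, Ptgr2, Zadh2, Slco2a1, Ptger1, Tbxa2r and Ptgir were named after their values had been seen.

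Abcc4, which exports prostaglandins from cells, averaged 11.9 ± 1.37 TPM in DMSO, 120.3 ± 1.24 in Cardamonin and 68.6 ± 6.76 in AEG 3482, with log2 differences of 3.24 and 2.43. It rose with Podofilox to 17.0 ± 1.27 TPM (0.49, adjusted p = 5.231e-06). Abcc4 was also called higher with Diphenyleneiodonium Cl, at 14.2 TPM, where the libraries overlapped the DMSO range, and in no other tested compound. Slco2a1, which carries prostaglandins into cells, went the other way. It averaged 3.38 ± 0.66 TPM in DMSO, 1.18 in Cardamonin and 0.851 in AEG 3482, and it fell in all 6 tested compounds, with differences from -0.70 in Podofilox (adjusted p = 1.683e-06) to -0.34 in Clofilium tosylate (adjusted p = 0.0123).

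Among the other receptors, Ptgfr, the prostaglandin F receptor, averaged 107.1 ± 10.5 TPM in DMSO (SD, n = 6), the highest of the prostaglandin receptors here, and 130.9 in AEG 3482 but 42.7 in Cardamonin. It fell with Podofilox to 54.8 ± 2.15 TPM (-0.95, adjusted p = 5.631e-08) and with Antimycin A to 58.3 ± 3.69 (-0.86, adjusted p = 4.422e-07). It also fell with Clofilium tosylate (-0.59, adjusted p = 0.0001979), Diphenyleneiodonium Cl (-0.55, adjusted p = 0.0003342) and BerberineA (-0.48, adjusted p = 0.001592), as Ptger4 did. Between Cardamonin and AEG 3482 it differed by -1.64 (adjusted p = 3.308e-11). Ptger1, another receptor for prostaglandin E2, averaged 1.34 TPM in DMSO, 2.10 in AEG 3482 and 1.31 in Cardamonin, and was called in none of the 6 tested compounds (adjusted p-values of 0.2016 to 0.8668). Tbxa2r, the thromboxane receptor, averaged 2.43 TPM in DMSO and 1.45 or less in every compound. Ptgir, the prostacyclin receptor, averaged 23.7 TPM in DMSO, 15.6 in AEG 3482 and 13.6 in Cardamonin, and was called in none of the 6 tested compounds.

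**Figure D4:**
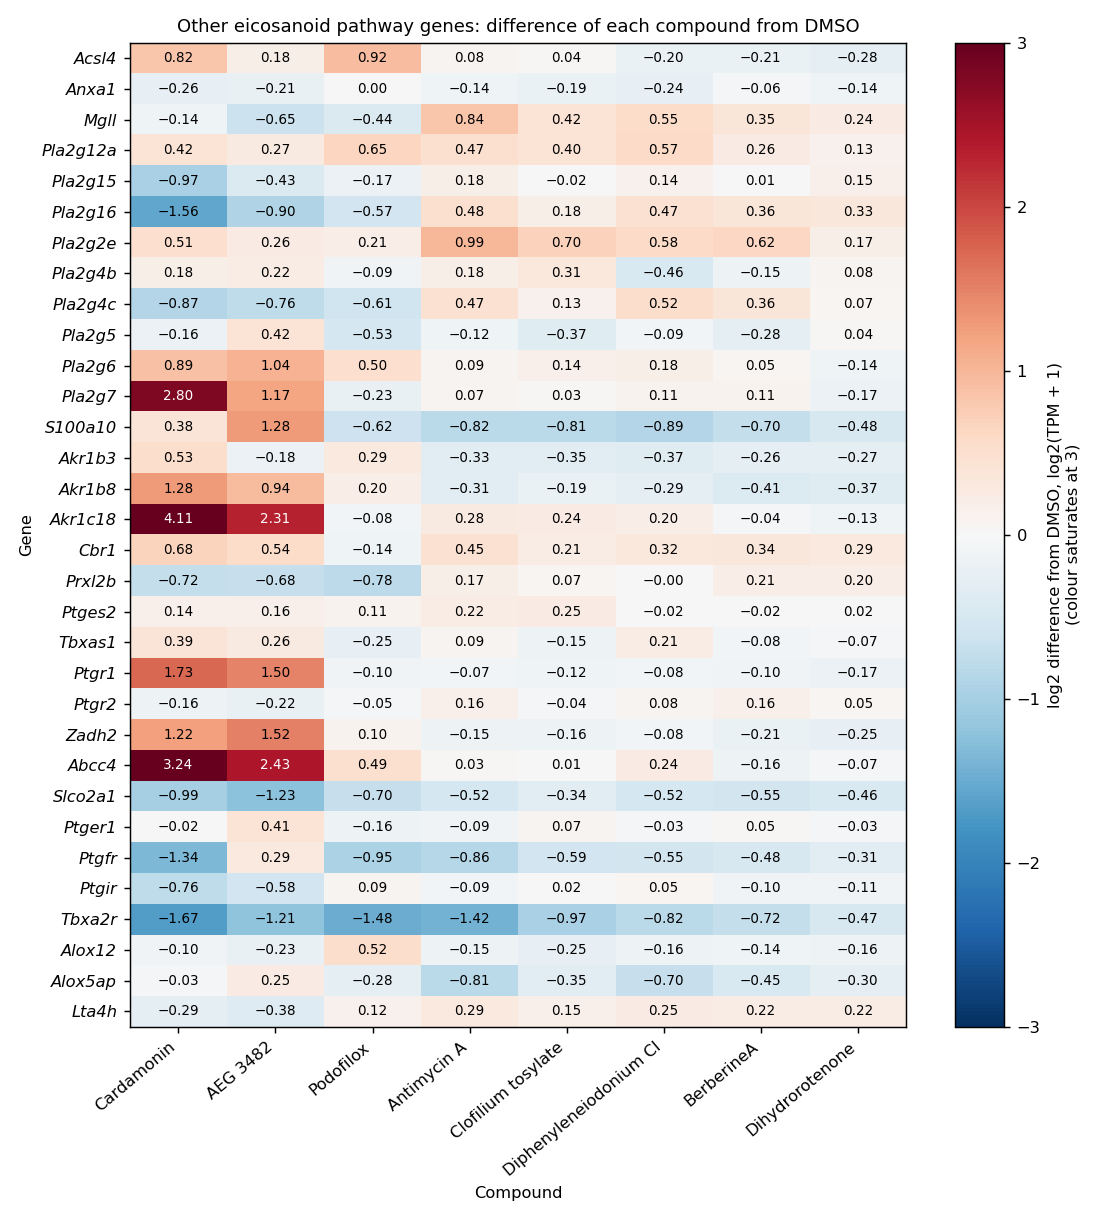
Log2 difference from DMSO on the log2(TPM + 1) scale for the 32 other pathway genes that passed the filter (rows, ordered by step of the pathway) in each compound (columns), with colour saturating at 3. Akr1c18 (4.11) and Abcc4 (3.24) are the most positive cells, both in Cardamonin, and Slco2a1 and Tbxa2r are negative in every column.

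Ptgs2 was set beside 32 genes commonly listed as NF-kB targets, a list that overlaps the genes on which the choice rested. Of these, 31 passed the filter and Il1a did not. In Cardamonin 1 was higher and 29 lower, with a median difference of -1.82. In AEG 3482 1 was higher and 29 lower, with a median of -2.14. These counts describe the contrasts that chose Ptgs2, in which 33.0% and 26.8% of all tested genes were lower. The gene that was higher in both was Csf1, a macrophage growth factor, at 716.9 and 676.5 TPM against 552.6 in DMSO (0.38 and 0.30, the latter 0.19 with median-ratio scaling). Ccl20, a chemokine, averaged 79.9 TPM in DMSO, 0.197 in Cardamonin and 0.303 in AEG 3482. Vcam1, an adhesion molecule, averaged 454.8 TPM in DMSO and 33.2 in Cardamonin, and the chemokine Cxcl5 7852 and 710.3. In AEG 3482 Nos2, the inducible nitric oxide synthase, averaged 0.387 TPM against 62.7, and the chemokine Cxcl2 0.521 against 22.7.

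Among the tested compounds, Podofilox raised 9 of the 31 genes, near the 26.2% of all tested genes. It lowered 16, beside 20% of all genes, and the median was -0.23. Ptgs2 rose with Podofilox, and the list went both ways. Nos2 averaged 275.5 TPM against 62.7 in DMSO and Il6 83.0 against 14.6, whereas Ccl5 averaged 1759 against 3666 and Ccl20 29.6 against 79.9. Antimycin A raised 3 and lowered 19 (21.8% and 15.5% of all genes), with a median of -0.23. Clofilium tosylate raised 2 and lowered 15 (10.9% and 12.5%, median -0.29), and BerberineA also 2 and 15 (12.6% and 9.16%, median -0.19). Diphenyleneiodonium Cl raised 5 and lowered 13 (14.0% and 11.7%, median -0.13), and Dihydrorotenone 2 and 10 (4.95% and 9.43%, median -0.15). Ptgs2 fell in those 5 compounds, and its difference was more negative than the median of the list in each. Over all tested genes the median difference in the 6 compounds lay between -0.03 and 0.04.

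**Figure D5:**
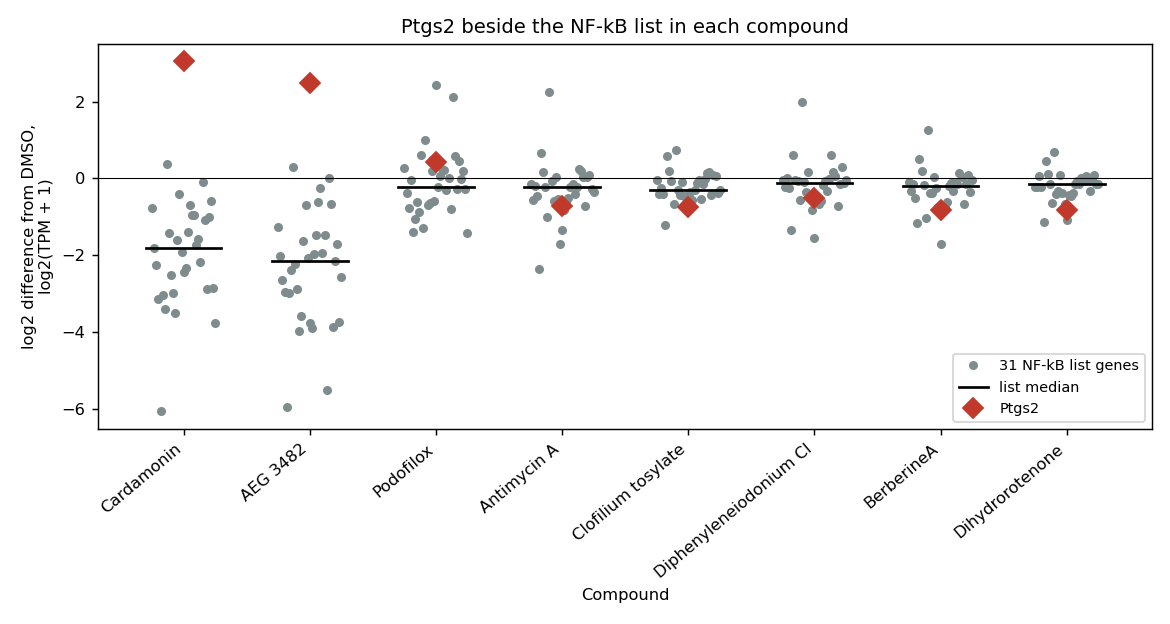
Log2 difference from DMSO on the log2(TPM + 1) scale in each compound for Ptgs2 (red diamonds) and for the 31 tested genes of the NF-kB list (grey points), with the median of the list as a black line. In Cardamonin and AEG 3482 Ptgs2 lies at 3.05 and 2.48, above every gene of the list, whose medians are -1.82 and -2.14, and in the other compounds it lies within the spread of the list.

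Of 19 genes known to regulate Ptgs2 transcription or the stability of its mRNA, all tested, 6 were higher and 8 lower in Cardamonin (37.3% and 33.0% of all tested genes). In AEG 3482 7 were higher and 6 lower (41.3% and 26.8% of all genes), so these counts say nothing particular of the regulators. Fosl1, a subunit of AP-1, averaged 121.6 ± 8.64 TPM in Cardamonin and 111.4 ± 4.59 in AEG 3482 against 31.6 ± 2.79 in DMSO. Atf3, a stress-induced factor of the ATF family, averaged 34.6 ± 2.15 TPM in Cardamonin and 5.71 in AEG 3482 against 5.40 ± 1.16 in DMSO, and it rose with Podofilox to 44.1 TPM (2.84, adjusted p = 2.104e-16). Egr1 averaged 148.2 ± 20.5 TPM in AEG 3482 against 73.0 ± 35.0 in DMSO, where the libraries varied widely. Zfp36l1, which promotes the decay of mRNAs with AU-rich elements, averaged 88.1 ± 15.6 TPM in Cardamonin and 135.1 ± 10.5 in AEG 3482 against 238.0 ± 18.9. Nfatc4, a calcium-dependent factor, averaged 33.4 TPM in Cardamonin against 73.4, and Cebpd 33.8 in AEG 3482 against 80.9. Podofilox raised 9 of the 19 and lowered 2, where 26.2% of all tested genes were higher and 20% lower. Antimycin A raised 2 and lowered 2 (21.8% and 15.5% of all genes), as did Diphenyleneiodonium Cl (14.0% and 11.7%) and BerberineA (12.6% and 9.16%). Dihydrorotenone raised 0 and lowered 3 (4.95% and 9.43%), and Clofilium tosylate 0 and 2 (10.9% and 12.5%).

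The patterns most like that of each gene were sought over the 9 group means, among 10215 genes, as a description. For Ptgs2 the closest were Sertad2 (Pearson's r = 0.998), Map1a (0.997), Twf1 (0.996), Ppp3ca (0.996) and Vcp (0.996), an ATPase that unfolds ubiquitinated proteins. The closest to Ptgs1 was Rfx7 (0.985), to Ptges Cdh23 (0.967), to Ptges3 Adgra3 (0.999), to Pla2g4a Hmga1 (0.997), to Hpgd Meox2 (0.994) and to Ptger4 Ywhab (0.992). With so few groups, and Cardamonin and AEG 3482 far from the rest, many genes reach a high r.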

How the data were processed

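RNA from the 30 libraries was ribodepleted and sequenced, per the labels' protocols. Per the series text and the submitters' processing notes, the authors quantified transcripts with kallisto 0.43.1 and summed them with tximport, and the notes name mm10 as the build. The deposited values are TPM, made by the authors, for 29861 genes, of which 29426 matched a GENCODE M21 (GRCm38) symbol. Listed genes held 92.7% to 93.7% of the TPM of a library, and the depth is unknown. No column was without a sample, and 0 pairs of columns were identical.

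Values were transformed to log2(TPM + 1). Genes reaching 1 TPM in 3 or more libraries (13644) entered a limma 3.58.1 fit in R 4.3.3 that took all 30 libraries, gave each group its own mean and moderated the variances along an intensity trend. P-values were adjusted by Benjamini and Hochberg's method within each comparison. Members and lists were chosen with earlier results of these data known. The series text speaks of fewer DMSO replicates than the 6 labelled, all used. Genes were named from the lists, for each compound, as up to 2 called rises and 2 called falls of the largest size (3 for the NF-kB list) whose higher group averaged 5 TPM or more and whose libraries lay outside the DMSO range. Shared 31-base words were counted in the reference transcripts. Alternatives were the pseudocount, the filter, the scaling, the moderation, the groups fitted, a replicate block and leaving out each library. The scripts were tested on simulated data.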

Additional observations from a re-analysis of the deposited data

Results flagged for a closer look

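Akr1b8 stood at 37.5 TPM in DMSO replicate 6, while the other 5 DMSO libraries ran from 28.6 to 31.9. The gap was 0.627 of the range of the group, just above the Dixon limit of 0.625 for 6 libraries. Chance flags about 1 in 20 groups, and 32 groups were examined.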

How the results depend on the processing

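Of 80 tested differences, 705 of 720 values under other settings and 661 of 678 with a single library left out kept their direction and their side of the threshold. Of 36 described differences of Cardamonin and AEG 3482 from DMSO, 31 of 324 values under other settings and 5 of 324 with a library left out moved by more than the spread between replicates. Counts of calls stayed within 1.5 times in 193 of 198 and 191 of 192 values. The exceptions were Dihydrorotenone, with 3 of the 7 genes called instead of 5 when only the groups compared were fitted, and 3 to 5 with a library left out; the other pathway genes, with 7 instead of 11 in Dihydrorotenone and 9 instead of 14 in Clofilium tosylate when only the groups compared were fitted; and Antimycin A against Dihydrorotenone, with 3 instead of 5 under quantile normalization and with only the groups compared. The Ptgs2 difference in AEG 3482 was 2.32 under quantile normalization, and in Cardamonin it ran from 2.96 to 3.18 with a library left out. Differences near 0 changed sign: Ptges in Antimycin A (0.0018 with the replicate block, 0.0625 without Antimycin A replicate 2, 0.0035 without DMSO replicate 4, and -0.0817 to 0.0625 over all libraries left out), Ptges3 in Antimycin A (-0.0426 to 0.0010, the latter without its replicate 1), Ptgs1 in Dihydrorotenone (-0.2758 to 0.0070, the latter without its replicate 1), Pla2g4a in BerberineA (-0.0047 with median-ratio scaling, -0.0043 with quantile normalization, -0.0044 without the 20 most abundant genes, and -0.0025 to 0.060 with a library left out) and Ptgs1 between Antimycin A and Dihydrorotenone (-0.1815 to 0.1013 with a library left out). None of these was called, and the cause was not tested. The median of all genes in AEG 3482 was 0.0965 as deposited and 0.0018 with median-ratio scaling, and the share of called genes that were higher between Antimycin A and Dihydrorotenone went from 74.8% to 52.5%.

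Replicate numbers were shared between groups, but no strong pairing by them was seen. Over 108 same-numbered pairs the correlation of deviations ran from -0.107 to 0.151, with a median of 0.008. Over 288 pairs with different numbers the median was 0.0008. Of 27 libraries, 13 correlated best with their own number, so weak pairing is not excluded. With the replicate block Ptger4 in Dihydrorotenone was not called (-0.24, adjusted p = 0.0693), Pla2g4a in Diphenyleneiodonium Cl was (0.25, adjusted p = 0.0379), and no count of calls moved by over 1.5 times. Depth is unknown, so low levels such as those of Ptgis and Tbxa2r carry no limit of detection.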
